A study of Mus musculus with 6 samples.

Results

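The 34 genes described here encode NF-kB subunits, the proteins that hold these subunits back, the kinases and adaptors that release them, and gene products that the pathway controls. They were chosen by symbol, each had 1 row among the 37583 genes of the deposited tables, and 31 of them passed a filter on low counts together with 13881 genes in all. RNA was sequenced from EGFP-positive cells sorted in 2 rounds from the renal medulla of B1 VATPase EGFP transgenic mice, in which EGFP marks intercalated cells, which secrete acid or base into the urine of the collecting duct. The IRI group held 3 samples taken 2 h after renal ischemia reperfusion injury (blood flow to the kidney interrupted, then let back) and the sham group held 3 samples taken 2 h after sham surgery. All mice were 12 weeks old and carried the transgene, and each sample pooled cells from 4 kidneys of 2 mice. Nothing in the labels states whether the pools of a group were prepared independently. The p-values therefore reflect pool-to-pool spread, part of which may be technical.

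The libraries held between 17421669 and 24245330 reads counted in genes. Intercalated cell transcripts were abundant: 10 markers summed to 21265 to 25597 CPM (counts per 1e+06 reads, libraries scaled by TMM) in IRI and to 20236 to 25915 CPM in sham, although Kit, Insrr and Atp6v1b1 of that list were lower after IRI. Markers of principal cells, the neighbours of intercalated cells, summed to 5424 to 10592 CPM in IRI and to 11217 to 12401 CPM in sham, with Aqp3 and Hsd11b2 called lower among 5 tested. Markers of the thick ascending limb, a tubule segment that also runs through the medulla, were summed too. Their sum was 885 to 1395 CPM in IRI and 1263 to 1975 CPM in sham. Kcnj1 was called lower among 5 tested, at a mean of 123 CPM in IRI and 625 CPM in sham (log2 -2.34 ± 0.35, adjusted p = 0.00211). Most of the difference in the sum came from Kcnj1. Umod, Slc12a1, Cldn16 and Ptger3 had no call and groups that overlapped. Of all genes tested, 21.2% were called lower. Markers of the proximal tubule summed to 1.48 to 4.20 CPM in IRI and to 3.50 to 6.09 CPM in sham. The part of these cells in the members' values was not tested. The labels also name epididymis as the tissue and the CX3CR1 gene as the driver of EGFP. Cx3cr1 had 1 read in the IRI libraries and 1 in the sham libraries, and 8 of 10 epididymis genes looked up stayed at 5 or fewer reads in every library. The other genes, Defb2 and Cst8, passed the filter, with 72 to 223 and 12 to 59 reads per library. In RNA of a cell mixture, fewer cells of a type and less RNA per cell cannot be told apart.

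NF-kB transcription factors are dimers of RelA, RelB, c-Rel and the products p50 and p52, which are cut from precursors encoded by Nfkb1 and Nfkb2. In resting cells IkB proteins keep most dimers in the cytoplasm. Signals from cytokine receptors, Toll-like receptors or antigen receptors activate the IkB kinase (IKK) complex, which marks IkB proteins for destruction and frees the dimers to enter the nucleus. Several genes of the pathway, among them Nfkbia and Tnfaip3, are themselves classical targets of NF-kB, which gives the pathway its negative feedback. In kidney tubules the pathway is known for driving adhesion molecules and chemokines after injury.

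The promoters of 6 members are shown because their genes are feedback regulators or subunits and because they hold matches to the kappaB consensus, the decamer to which NF-kB dimers bind. Each is the stretch of 130 bases that ends just before the annotated start of the gene, taken from RefSeq on GRCm38.p6 and written 5′ to 3′ on the gene's own strand, with every match on either strand in capitals. Overlapping matches run together in the capitals of Tnip1, Nfkb2 and Rel.
Nfkbia (chr12:55492648-55492777, - strand): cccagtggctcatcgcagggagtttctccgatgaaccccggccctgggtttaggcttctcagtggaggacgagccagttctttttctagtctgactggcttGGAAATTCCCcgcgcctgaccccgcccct
Nfkbie (chr17:45555570-45555699, + strand): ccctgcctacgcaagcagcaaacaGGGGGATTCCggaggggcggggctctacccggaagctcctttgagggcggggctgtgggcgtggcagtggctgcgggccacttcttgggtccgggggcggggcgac
Tnfaip3 (chr10:19015411-19015540, - strand): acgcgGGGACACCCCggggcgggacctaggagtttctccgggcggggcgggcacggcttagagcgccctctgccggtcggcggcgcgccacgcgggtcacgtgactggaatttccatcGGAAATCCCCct
Tnip1 (chr11:54962941-54963070, - strand): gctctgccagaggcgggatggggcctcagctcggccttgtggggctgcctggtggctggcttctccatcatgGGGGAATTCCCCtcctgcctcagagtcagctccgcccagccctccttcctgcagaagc
Nfkb2 (chr19:46304607-46304736, + strand): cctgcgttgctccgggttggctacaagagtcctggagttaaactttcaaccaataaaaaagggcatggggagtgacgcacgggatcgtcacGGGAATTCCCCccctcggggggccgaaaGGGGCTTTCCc
Rel (chr11:23770970-23771099, - strand): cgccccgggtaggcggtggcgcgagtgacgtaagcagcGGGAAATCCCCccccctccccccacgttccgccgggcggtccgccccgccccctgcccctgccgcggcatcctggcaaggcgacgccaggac

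In Nfkbia the match began 29 bases before the start, and in Tnfaip3 matches began 125 and 12 bases before it. RefSeq windows of 250 bases before to 50 bases after a start were at hand for 25 of the 34 members, some with several starts. Of these 25 members, 13 (52%) had at least 1 match in a window, against 2581 of 27025 genes with windows in the genome (9.55%). Counted by window, 18 of 37 windows of members held a match, against 8.46% of all 32851 windows. Several members are textbook NF-kB targets, so the list was not neutral with respect to this motif. The 13 members were Nfkb2, Rel, Nfkbia, Nfkbie, Nfkbid, Bcl3, Tnfaip3, Tnip1, Tnip3, Cyld, Tank, Bcl10 and Tnfaip2. Rela, Nfkbib, Tnip2, Chuk, Ikbkg, Ikbke, Tbk1, Birc2, Birc3, Cflar, Bcl2a1d and Icam1 had windows without a match. The consensus searched was GGGRNNYYCC or its reverse complement, where R is A or G, Y is C or T and N is any base. Sites that differ from it, or lie outside the windows, were not looked for. Among members with windows, 10 of 17 called higher after IRI held a match, and 2 of 5 with no call did. A match is a run of letters, and binding was not measured.

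**Figure D1:**
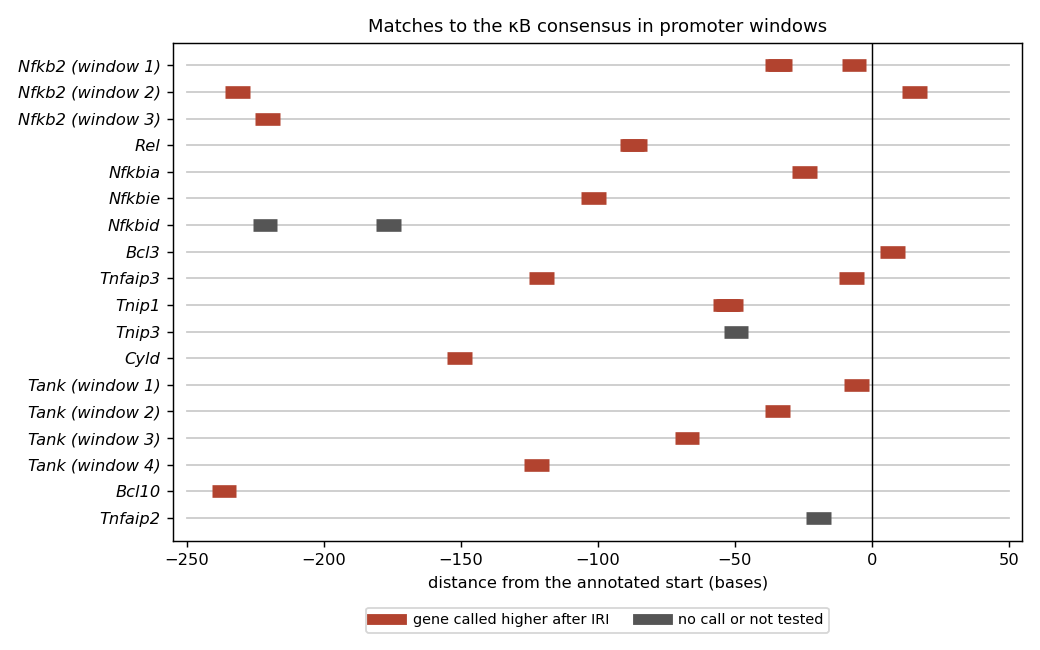
Positions of matches to the kappaB consensus (blocks, 10 bases each) in the RefSeq windows of the 13 members that have them, as distance in bases from the annotated start (vertical line). Red marks genes called higher after IRI and grey the others. Matches of Nfkbia, Nfkbie, Rel, Tnip1 and Tnfaip3 lie before the start, while that of Bcl3 begins 3 bases into the transcript.

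Most of the 31 members tested rose after IRI, and none of them was called lower. Of the 31 members tested, 23 (74.2%) were higher in the quasi-likelihood test of edgeR, with p-values adjusted over all genes after Benjamini and Hochberg, against 24.2% of all genes tested. Calls in either direction made up 45.5% of all genes. An increase of at least 2-fold was called for 16 members (51.6%), against 11.5% of all genes. No member was called lower, where 21.2% of all genes were, and 0 members were lower by DESeq2 or before adjustment (p under 0.05). Every IRI sample lay above every sham sample for 22 members (71.0%), against 29.2% of all genes. The median log2 fold change of IRI over sham was 1.17 over the tested members and 0.00 over all tested genes. The filter admitted 27 of the 31 by their sham levels alone, and 21 of those 27 were called higher. The share called higher among all genes admitted in that way was not computed. Rel, Vcam1, Cd40 and Cd83 passed only through their IRI levels. Of all calls, 53.3% were increases, against 42.0% when libraries were scaled by upper quartiles (median log2 fold change of all genes shifted by -0.122) and 35.6% by library size alone (shifted by -0.201).

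All 5 subunits, 5 of 6 IkB family members and 4 of 4 tested ubiquitin-editing inhibitors were called higher, with median log2 fold changes of 2.60, 1.80 and 1.03. Among kinases and adaptors, 5 of 8 tested were higher, 1 of them at least 2-fold, with a median of 0.39. Of the effectors, 4 of 8 tested were higher, with a median of 1.07. That median lies between Cd40 (log2 1.04 ± 0.87) and Cd83 (log2 1.10 ± 0.98), which had no call. Cd40, Cd83 and the called Vcam1 passed the filter only through their IRI levels, as did Rel among the subunits. Over all genes tested, 24.2% were called higher and 11.5% at least 2-fold. Differences between roles were not tested, since members of a role are not replicates.

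**Figure D2:**
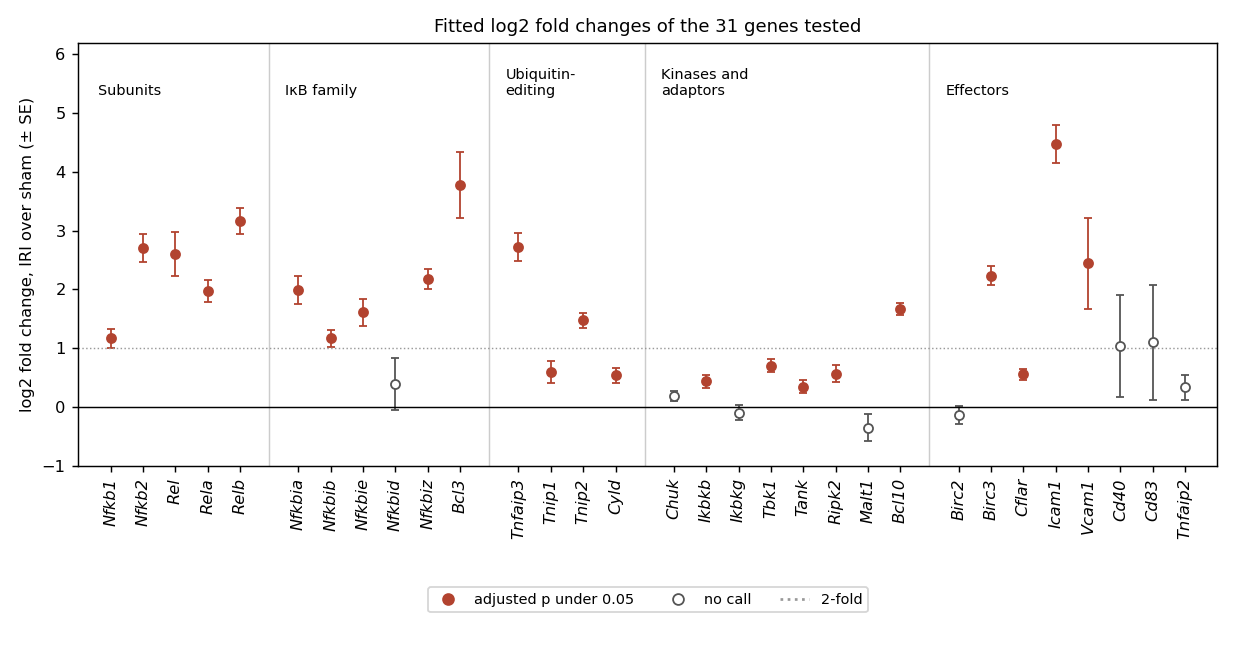
Log2 fold changes, IRI over sham, from the edgeR fit (± SE) for the 31 members tested, ordered by role. Filled red points passed an adjusted p of 0.05, open points did not, and the dotted line marks 2-fold. All subunits lie above the dotted line, whereas Bcl10 is the only one of the kinases and adaptors to do so.

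Levels below are the authors' RPKM, reads per gene length and sequencing depth, which put genes on a common scale. Each gene has 1 deposited length (14252 bases for Ikbkb), and whether it matches the transcripts of these cells was not tested. Ranks, shares and ratios between genes depend on these lengths. Values stand in the order of replicates 1, 2 and 3 of a group, and log2 fold changes ± SE and adjusted p come from the same edgeR fit to the counts.

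Rela, the main transactivating subunit of the canonical pathway, was the most abundant subunit. It stood at 57.5, 90.4 and 59.4 RPKM in IRI, against 17.7, 17.2 and 19.3 RPKM in sham (log2 1.97 ± 0.18, adjusted p = 9.73e-05). The lowest IRI sample was well above the highest sham sample, and IRI replicate 2 was the highest of all, as it was for Nfkb1, Nfkb2 and Relb. Nfkb1, which encodes p105 and from it p50, had the smallest fold change of the subunits, at 4.65, 6.58 and 5.22 RPKM in IRI, against 2.68, 2.28 and 2.55 RPKM in sham (log2 1.17 ± 0.16, adjusted p = 0.000501).

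The subunits of the non-canonical pathway had fold changes of 6.54 for Nfkb2 and 8.93 for Relb. Those of the other subunits were 3.93 for Rela, 2.25 for Nfkb1 and 6.06 for Rel, so that Rel came close to Nfkb2. Nfkb2, which encodes p100 and p52, stood at 31.9, 43.8 and 23.1 RPKM in IRI, against 5.96, 4.80 and 4.70 RPKM in sham (log2 2.71 ± 0.24, adjusted p = 0.00011). Relb, the partner of p52, stood at 21.5, 32.4 and 18.5 RPKM in IRI, against 3.05, 2.74 and 2.53 RPKM in sham (log2 3.16 ± 0.22, adjusted p = 2.87e-05). The lowest IRI sample of either gene was well above its highest sham sample. Counting did not use strand, and genes on the other strand overlap 11.6% and 6.52% of the exon bases of Nfkb2 (a long non-coding RNA and Psd, GENCODE on GRCm38). Overlaps in the mm9 annotation that was counted were not checked. Reads there may be mixed with those of the other gene, or missing among the ambiguous reads left out (1.58% to 1.73% of reads). The same holds for 14.5% of Nfkbib (Ccer2), 11.7% of Icam1 and 6.51% of Bcl3 (antisense RNAs), 6.3% of Tnfaip2 and 5.15% of Ikbkg (G6pdx). Rel, the subunit best known from lymphocytes, was the scarcest, at 0.899, 1.15 and 1.27 RPKM in IRI, against 0.157, 0.277 and 0.118 RPKM in sham. It rested on 56, 71 and 75 reads in IRI and on 11, 18 and 6 reads in sham (log2 2.60 ± 0.38, adjusted p = 0.000694). Markers of lymphocytes summed to 7.05, 10.2 and 32.6 CPM in IRI and to 3.38, 19.5 and 65.0 CPM in sham.

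Rela held 49.4%, 51.8% and 55.3% of the summed subunit RPKM in IRI, against 59.9%, 63.0% and 66.1% in sham. Relb held 18.5%, 18.6% and 17.2% in IRI, against 10.3%, 10.05% and 8.65% in sham. Nfkb2 held 27.4%, 25.1% and 21.5% in IRI and 20.2%, 17.6% and 16.1% in sham, and Nfkb1 held 4.21% ± 0.57 in IRI and 8.72% ± 0.36 in sham (SD, n = 3 each). Groups did not overlap for any of these 4 shares, which are tied to one another because they sum to the whole. The share of Rel overlapped between groups. With 3 samples against 3, the smallest two-sided p of an exact permutation test is 0.1, so the shares are given without a test.

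**Figure D3:**
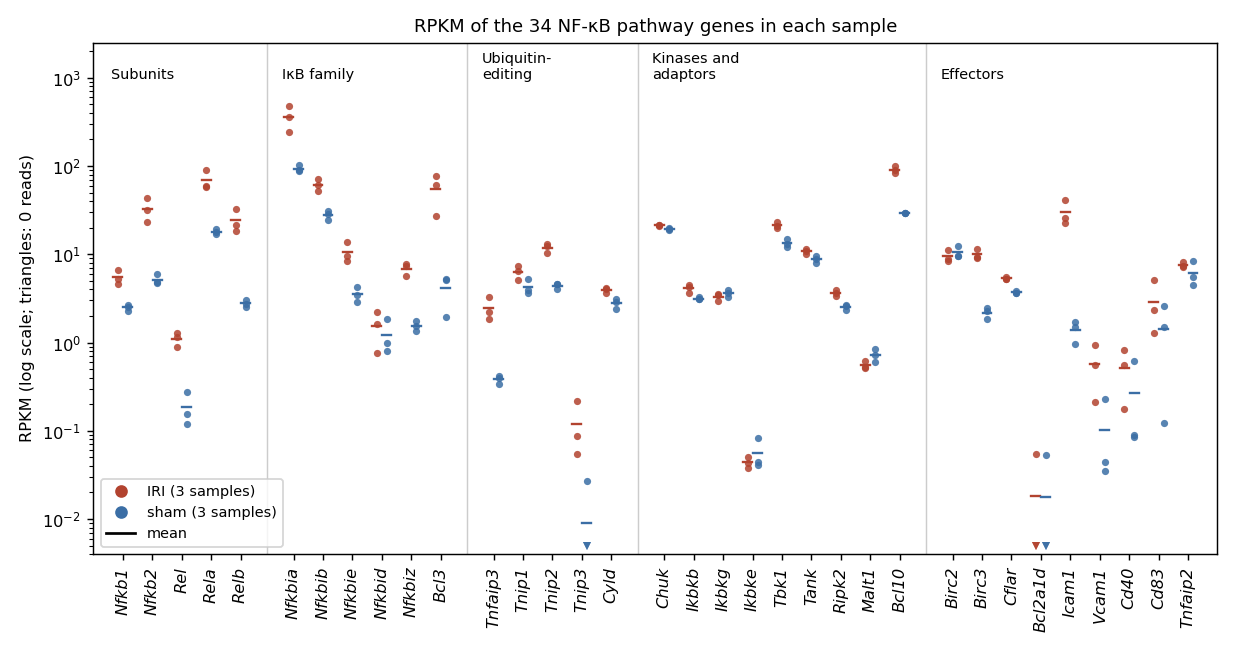
RPKM (log axis) of all 34 members in each IRI sample (red, left) and sham sample (blue, right), ordered by role, with a bar at each group's mean and triangles for samples with 0 reads. Nfkbia is the highest member in either group, and the groups stand apart for all 5 subunits.

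Nfkbia encodes IkBalpha, the classical IkB that is destroyed upon signalling and then remade. With 358.98 ± 118.9 RPKM in IRI and 93.3 ± 7.7 RPKM in sham (SD, n = 3 each) it was the most abundant of the 34 members in both groups. Its samples stood at 241, 479 and 356 RPKM in IRI, against 102, 89.994 and 87.8 RPKM in sham (log2 1.98 ± 0.24, adjusted p = 0.000458). All IRI samples were more than 2-fold above all sham samples, and IRI replicate 1 was the lowest of the 3. Nfkbib, which encodes IkBbeta, stood at 51.5, 71.9 and 61.4 RPKM in IRI, against 24.6, 31.03 and 28.9 RPKM in sham (log2 1.17 ± 0.15, adjusted p = 0.000317). Nfkbie, for IkBepsilon, stood at 8.30, 13.8 and 9.47 RPKM in IRI, against 4.27, 2.91 and 3.43 RPKM in sham (log2 1.61 ± 0.23, adjusted p = 0.000632).

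Summed over these 3 classical inhibitors, IkB transcripts stood at 301, 565 and 427 RPKM in IRI, against 131, 124 and 120 RPKM in sham. The summed subunits stood at 116, 174 and 107 RPKM in IRI, against 29.5, 27.3 and 29.2 RPKM in sham. The ratio of inhibitor to subunit RPKM was 2.59, 3.24 and 3.98 in IRI and 4.43, 4.55 and 4.11 in sham, lower in every IRI sample than in any sham sample, although the highest IRI value lay close to the lowest sham value. Nfkbia over Rela alone gave 4.20, 5.30 and 6.00 in IRI and 5.77, 5.24 and 4.54 in sham, with groups that overlapped.

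**Figure D4:**
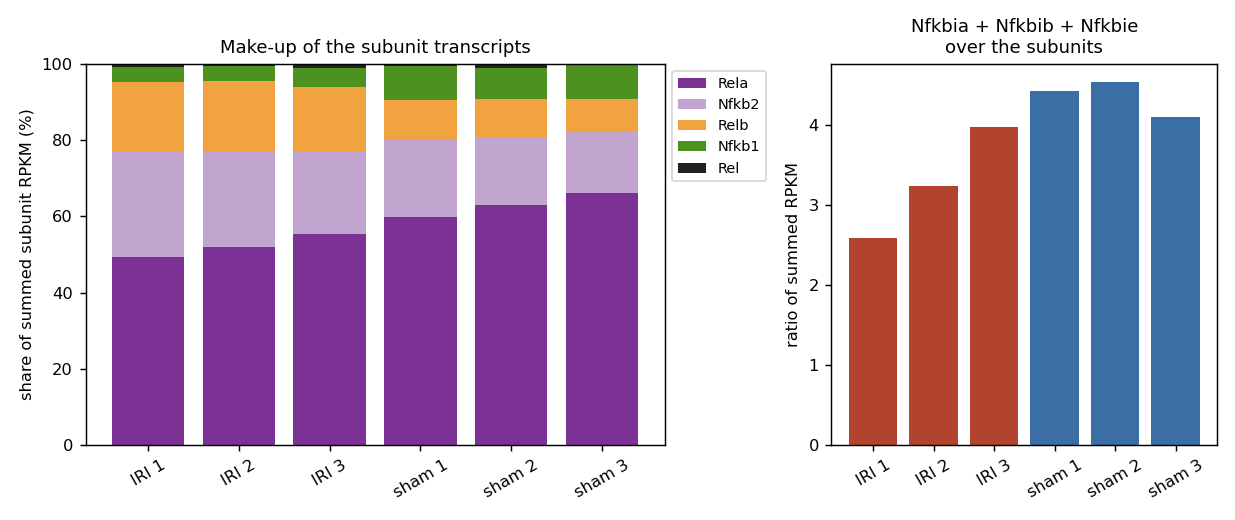
Left, share of each subunit gene in the summed subunit RPKM (percent) per sample, with IRI samples left of sham samples. Right, summed RPKM of Nfkbia, Nfkbib and Nfkbie over that of the 5 subunits. Rela holds 49.4% to 55.3% in IRI and 59.9% to 66.1% in sham, and the ratio is 2.59 to 3.98 in IRI and 4.11 to 4.55 in sham.

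The other IkB family members work mainly in the nucleus, where they bind p50 or p52 homodimers and change their activity. Bcl3 stood at 61.4, 76.9 and 27.5 RPKM in IRI, against 1.97, 5.31 and 5.14 RPKM in sham. It had the largest fold change of the family, 13.8-fold, and also a wide spread, with IRI replicate 3 and sham replicate 1 the lowest of their groups (log2 3.78 ± 0.56, adjusted p = 0.00325). By mean RPKM it was number 5 of the 34 members in IRI and number 13 in sham. Nfkbiz, for IkBzeta, which helps switch on secondary response genes, stood at 5.62, 7.30 and 7.68 RPKM in IRI, against 1.78, 1.52 and 1.36 RPKM in sham (log2 2.18 ± 0.17, adjusted p = 2.84e-05). Nfkbid, for IkBNS, was the one family member with no call: 0.767, 1.64 and 2.19 RPKM in IRI and 0.801, 0.991 and 1.83 RPKM in sham, with overlapping groups (log2 0.39 ± 0.44, adjusted p = 0.503).

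Tnfaip3 encodes A20, an enzyme that edits ubiquitin chains on upstream adaptors and so ends the signal. It stood at 1.87, 3.30 and 2.24 RPKM in IRI, against only 0.396, 0.337 and 0.419 RPKM in sham (log2 2.72 ± 0.24, adjusted p = 5.74e-05). Of its binding partners, the ABIN proteins, Tnip2 stood at 12.4, 12.9 and 10.4 RPKM in IRI, against 4.07, 4.55 and 4.59 RPKM in sham (log2 1.48 ± 0.13, adjusted p = 5.02e-05). Tnip1 stood at 6.45, 7.42 and 5.06 RPKM in IRI and at 5.31, 3.68 and 3.92 RPKM in sham, where IRI replicate 3 lay below sham replicate 1. It was called higher (log2 0.59 ± 0.19, adjusted p = 0.0322), and the call was lost without IRI replicates 1 or 2 or sham replicates 2 or 3 (adjusted p up to 0.137) and with scaling by upper quartiles or by library size alone. Tnip3 did not pass the filter: its 5, 8 and 19 reads in IRI and 0, 0 and 2 in sham gave a ratio of summed reads of 16.7 (exact 95% interval 4.26 to 143.7, which covers counting error only). With no filter it was called higher by edgeR (log2 3.76 ± 1.03, adjusted p = 0.00733), and DESeq2 called it higher too.

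Cyld, which removes the linear and K63-linked ubiquitin chains on which the signal is built, stood at 4.13, 3.68 and 4.04 RPKM in IRI, against 3.10, 2.39 and 2.89 RPKM in sham. Its change was small but its groups did not overlap (log2 0.54 ± 0.13, adjusted p = 0.00966), and it lost its call with library size alone (adjusted p = 0.092).

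Genes of the IKK complex had small fold changes. Chuk, for the catalytic subunit IKKalpha, stood at 21.7, 21.1 and 21.6 RPKM in IRI, against 18.8, 19.2 and 19.9 RPKM in sham, with no call (log2 0.19 ± 0.08, adjusted p = 0.095) and a sign that turned with library size alone (log2 -0.01). Ikbkb, for IKKbeta, which drives the canonical pathway, stood at 4.53, 4.21 and 3.69 RPKM in IRI, against 3.27, 3.09 and 3.08 RPKM in sham. This increase was 1.35-fold (log2 0.43 ± 0.11, adjusted p = 0.00949), and its call was lost without sham replicate 3 (adjusted p = 0.0617) and with library size alone (adjusted p = 0.142). Ikbkg, for the scaffold NEMO, stood at 3.43, 3.50 and 2.96 RPKM in IRI and 3.96, 3.65 and 3.27 RPKM in sham (log2 -0.10 ± 0.12, adjusted p = 0.536).

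Of the IKK-related kinases, Tbk1, which acts in innate antiviral signalling, stood at 23.0, 21.1 and 19.8 RPKM in IRI, against 15.1, 12.0 and 13.2 RPKM in sham (log2 0.70 ± 0.12, adjusted p = 0.00137). Its relative Ikbke was nearly silent, with 6, 7 and 5 reads in IRI and 13, 6 and 5 reads in sham, and was below the filter. Tank, an adaptor that binds TBK1, stood at 10.2, 11.6 and 11.0 RPKM in IRI, against 9.59, 8.93 and 7.95 RPKM in sham. Its increase was the smallest to be called (log2 0.35 ± 0.11, adjusted p = 0.0288) and the call was lost under 7 of the 13 alternatives, among them leaving out IRI replicates 2 or 3 or sham replicates 2 or 3 (adjusted p up to 0.167) and library size alone (adjusted p = 0.328).

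Bcl10 and Malt1 form a complex with CARD proteins that carries signals from antigen and some G protein-coupled receptors to IKK. Bcl10 stood at 82.5, 99.6 and 89.5 RPKM in IRI, against 29.2, 29.2 and 29.1 RPKM in sham (log2 1.67 ± 0.10, adjusted p = 1.19e-05). It was number 2 of the 34 members by mean RPKM in both groups, and its sham samples agreed closely. Malt1, the protease of the complex, stood at 0.514, 0.615 and 0.526 RPKM in IRI and at 0.718, 0.609 and 0.849 RPKM in sham, with no call (log2 -0.35 ± 0.23, adjusted p = 0.248). Ripk2, the kinase downstream of the NOD receptors, stood at 3.36, 3.93 and 3.61 RPKM in IRI, against 2.59, 2.32 and 2.65 RPKM in sham (log2 0.57 ± 0.14, adjusted p = 0.0115). Its call was lost without IRI replicate 2 (adjusted p = 0.0508), without sham replicate 2 (adjusted p = 0.0509) and with library size alone (adjusted p = 0.0718).

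The inhibitors of apoptosis cIAP1 and cIAP2, ubiquitin ligases encoded by the neighbours Birc2 and Birc3, differed in their calls. Birc3 stood at 9.42, 11.6 and 9.02 RPKM in IRI, against 1.86, 2.26 and 2.44 RPKM in sham (log2 2.24 ± 0.15, adjusted p = 1.86e-05). Birc2 stood at 11.1, 8.79 and 8.42 RPKM in IRI and at 12.6, 9.66 and 9.67 RPKM in sham, with no call (log2 -0.14 ± 0.15, adjusted p = 0.501). Birc2 over Birc3 was 1.18, 0.756 and 0.933 in IRI and 6.76, 4.27 and 3.97 in sham, so that the pair was near parity after IRI and Birc2 prevailed in every sham sample. Cflar, for the caspase-8 inhibitor c-FLIP, stood at 5.47, 5.29 and 5.23 RPKM in IRI, against 3.64, 3.66 and 3.88 RPKM in sham (log2 0.55 ± 0.10, adjusted p = 0.0017). Bcl2a1d, a survival gene of blood cells with near-identical copies, had 1 read in the IRI libraries and 1 in the sham libraries. Reads that aligned to more than 1 place, 39.9% to 42.4% per library, were left out. Reads shared between the copies would therefore not be counted.

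Icam1, the ligand of leukocyte integrins, had the largest fold change of the members. It stood at 22.7, 41.6 and 25.7 RPKM in IRI, against 1.70, 0.964 and 1.49 RPKM in sham (log2 4.47 ± 0.32, adjusted p = 5.33e-05), and was number 7 of the 34 members by mean RPKM in IRI and number 25 in sham. Vcam1, another adhesion molecule, stood at 0.931, 0.211 and 0.560 RPKM in IRI and at 0.227, 0.0349 and 0.0447 RPKM in sham, on 102, 23 and 58 reads in IRI and 28, 4 and 4 reads in sham. Its groups overlapped, since IRI replicate 2 lay below sham replicate 1, but within each pair of same-numbered samples the IRI value was the higher one. Vcam1 was called higher (log2 2.45 ± 0.78, adjusted p = 0.0349), and so it was with the replicate block (log2 2.62 ± 0.42, adjusted p = 0.00256). Without the block, the call was lost when IRI replicates 1 or 3 or sham replicates 2 or 3 were left out (adjusted p up to 0.109) and with no filter on low counts (adjusted p = 0.0927), and the log2 value was 3.82 without sham replicate 1.

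The remaining surface proteins and Tnfaip2 had no call. Cd83, a marker of activated dendritic cells and B cells, stood at 5.34, 2.98 and 12.1 CPM in IRI and at 0.275, 3.42 and 5.98 CPM in sham (log2 1.10 ± 0.98, adjusted p = 0.41). Cd40, the TNF receptor family member through which B cells and macrophages are helped, stood at 0.629, 2.93 and 1.98 CPM in IRI and at 0.314, 0.295 and 2.18 CPM in sham (log2 1.04 ± 0.87, adjusted p = 0.366). Within sham, replicate 3 was the highest for both genes and also for the lymphocyte marker sum. Without sham replicate 3, Cd40 was called higher (log2 2.54, adjusted p = 0.0247). Tnfaip2, a TNF-inducible gene of membrane protrusions, stood at 8.08, 7.28 and 7.23 RPKM in IRI and at 5.48, 4.51 and 8.40 RPKM in sham, and it too was called higher without sham replicate 3 (log2 0.60, adjusted p = 0.0185) but not with it (log2 0.34 ± 0.21, adjusted p = 0.233).

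**Figure D5:**
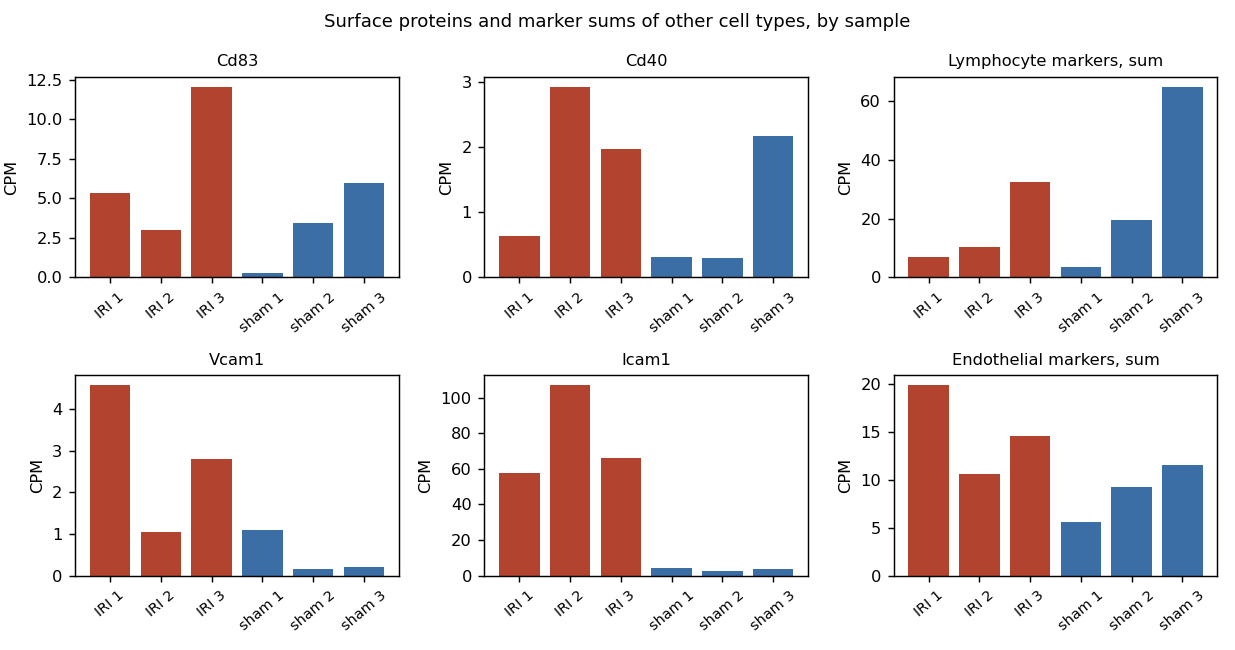
CPM of Cd83, Cd40, Vcam1 and Icam1 and summed CPM of 10 lymphocyte and 10 endothelial markers in each IRI sample (red, left) and sham sample (blue, right). In sham, replicate 3 is highest for Cd83, Cd40 and the lymphocyte markers, and replicate 1 for Vcam1, while Icam1 separates the groups.

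Markers of other cells were counted in the same libraries. Endothelial cells carry both adhesion molecules when activated. Their markers summed to 19.8, 10.5 and 14.6 CPM in IRI and 5.58, 9.24 and 11.5 CPM in sham, with groups that overlapped. Of 5 tested, 1 (20%) was higher, Flt1, against 24.2% of all genes tested. Flt1, Pecam1 and Emcn passed the filter only through their IRI levels, so that the test could hardly find them lower. Markers of macrophages and dendritic cells summed to 96.1, 116.9 and 76.3 CPM in IRI and 29.2, 17.2 and 25.6 CPM in sham. Most of that difference came from Cd68, with means of 37.7 CPM in IRI and 0.903 CPM in sham, and Cd14, with 32.7 and 7.87 CPM. Of 10 tested, 4 (40%) were higher by edgeR (Cd68, Cd14, Lyz2 and Ptprc), against 24.2% of all genes tested, and 5 by DESeq2. For 6 of the 10 (60%) every IRI sample lay above every sham sample, against 29.2% of all genes tested. They were those 4 and also Tyrobp and Fcer1g, which had no call by edgeR. Of the 10, Tyrobp, Csf1r and C1qb met the filter's cutoff in every IRI sample but not in every sham sample. The other 4 tested, Csf1r, C1qa, C1qb and C1qc, had no call and groups that overlapped. Of those not tested, Itgam had 27 reads in IRI and 3 in sham (ratio 9.38, exact 95% interval 2.89 to 48.3). Emr1 had 7 and 2 reads, Itgax 5 and 0, Mrc1 26 and 25, and Cx3cr1 1 and 1, in IRI and sham. None of 10 neutrophil markers passed the filter, Elane and Camp were at 0 in every library, and the list summed to 4.71, 1.42 and 0.0483 CPM in IRI and to 0.118, 0.0844 and 0 CPM in sham. Of 5 lymphocyte markers tested, edgeR called 0, DESeq2 called 0 and 0 passed p under 0.05 before adjustment. Fibroblast and pericyte markers summed to 14.8, 35.5 and 21.6 CPM in IRI and to 18.4, 83.2 and 28.8 CPM in sham, nearly all from Dcn, and Col3a1 was at 0 in every library. The part of such cells in the values of Icam1, Vcam1, Cd40, Cd83 and the other members was not tested.

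Genes around the members were counted from lists of 37 upstream components and 24 further targets. Of 34 upstream genes tested, 15 (44.1%) were higher, against 24.2% of all genes tested, with a median log2 fold change of 0.38. The linear ubiquitin ligase component Rbck1 was the 1 gene called lower (log2 -0.33 ± 0.11, adjusted p = 0.0392), where 21.2% of all genes were. Tnfrsf1b and Tlr2, both among the 15, passed the filter only through their IRI levels, and 13 of the other 32 were higher (median log2 fold change 0.30). The TNF receptor Tnfrsf1a stood at 151 ± 20.4 CPM in IRI and 47.3 ± 1.28 CPM in sham (SD, n = 3 each; log2 1.68 ± 0.12, adjusted p = 1.86e-05). Map3k14, for the kinase NIK that starts p100 processing, stood at 16.8 ± 0.44 CPM in IRI and 4.01 ± 0.78 CPM in sham (log2 2.06 ± 0.18, adjusted p = 5.12e-05). Traf3, which holds NIK levels down, rose 2.26-fold (log2 1.17 ± 0.14, adjusted p = 0.000264), and Map3k8, the kinase TPL2 that p105 restrains, rose 4.29-fold (adjusted p = 6.45e-05). The call of Rbck1 was lost without IRI replicates 2 or 3 and without each of the sham replicates (adjusted p 0.0559 to 0.1001).

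Of 17 further targets tested, 14 (82.4%) were higher, against 24.2% of all genes tested. Those called lower numbered 0 (0 also by DESeq2 and before adjustment), where 21.2% of all genes were. Cxcl1, Cxcl2, Ccl20, Il6, Il1b and Ptgs2 passed the filter only through their IRI levels, so that the test could hardly find them lower. Of the other 11 targets, 9 were higher. The prostaglandin synthase Ptgs2 stood at 12.6 ± 5.89 CPM in IRI and 0.518 ± 0.152 CPM in sham (SD, n = 3 each; log2 4.61 ± 0.42, adjusted p = 9.23e-05). Ier3, an early survival gene, stood at 414 ± 66.3 CPM in IRI and 135 ± 24.1 CPM in sham (log2 1.62 ± 0.17, adjusted p = 0.000123). Lcn2, the iron-scavenging protein of injured tubules, stood at 419 ± 171 CPM in IRI and 43.4 ± 4.28 CPM in sham (adjusted p = 0.000161). Il1b had 190 reads in IRI and 4 in sham, a ratio of 49.5 with an exact 95% interval of 19.03 to 183.6. Over both lists, 43 genes met the filter's cutoff in every sham sample, and of these 22 were called higher, 15 of them at least 2-fold, and 1 was lower. Of all genes tested, whether or not they met it in sham, 24.2% were higher, 11.5% at least 2-fold, and 21.2% were lower. No share was computed over all genes that met the cutoff in every sham sample. The counts of members, upstream genes and targets that met it therefore have no like background.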

How the data were processed

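RNA from 6 pools of sorted cells, 3 per group, was analysed. The authors deposited whole-number gene counts, made without regard to strand per the file names; STAR, HTSeq, edgeR and the mm9 build are named in the submitters' processing notes, with no versions. The authors' deposited RPKM values are count over gene length and an effective library size that was 0.917 to 1.09 times the gene total. Rows that name no gene held 49.3% to 50.9% of reads and were left out. The deposited counts were tested in R 4.3.3 with edgeR 4.0.16 (filterByExpr, TMM, robust quasi-likelihood test, group as the only term, Benjamini-Hochberg adjustment over 13881 genes, threshold 0.05), and the procedure was tested on simulated data. DESeq2 1.42.0, other scalings and filters, a replicate block and leaving out each sample were the alternatives. Same-numbered IRI and sham samples deviated together (correlations of 0.195, 0.121 and 0.177, against -0.149 to 0.005 for samples of unlike number). These values come from the same data and no label states a shared batch. Whether the numbers pair the samples was not tested. The main fit did not use a pairing, and the replicate block was run as an alternative. Promoters came from a RefSeq table on GRCm38.p6 and were searched on both strands for the kappaB consensus. All members are named; of each list of other pathway genes, up to 4 called genes with the smallest p are, and Rbck1 was named after its value was seen. The epididymis genes were chosen after the files were seen. Members and lists were chosen with earlier results of these data known. Intervals of read ratios cover counting error only.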

Additional observations from a re-analysis of the deposited data

How the results depend on the processing

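Members called higher numbered 23, and 24 with DESeq2 (the 23 and Tnip3), 23 with DESeq2 size factors or a stricter filter, 22 with no filter (21 of the 23, without Tank and Vcam1, and Tnip3), 21 when scaled by upper quartiles and 18 by library size alone. Leaving out 1 sample gave 19 to 23, and no member was called lower under any of these alternatives. With the replicate block, 23 members were higher, the same 23 genes, with a median log2 fold change of 1.25, and the block changed no call of a member. The median of the members was 0.96 with library size alone, which shifts all genes by -0.201, and 1.02 to 1.47 when 1 sample was left out. Other pathway genes called lower numbered 1, against 3 with library size alone and 0 to 1 when 1 sample was left out. Of 403 values of single members under the alternatives, 376 kept direction and side of the threshold, 24 lost and 2 gained a call, and 1 changed sign: Chuk, at -0.012 with library size alone. The cause of these changes was not tested. Tnip3, Ikbke and Bcl2a1d did not pass the filter on low counts. Few reads limit what can be said of Ikbke and Bcl2a1d, and for Bcl2a1d reads shared with its copies were left out as well. The spread between samples limits Cd83, with 7, 81 and 110 reads in sham.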
